A study of Mus musculus with 16 samples.

Results

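The numbered Zfp genes encode zinc finger proteins of the C2H2 class, in which short loops held by a zinc ion line up in an array that reads DNA, or in some members RNA. The members described here were the protein-coding genes whose symbol is Zfp followed only by digits, leaving out Zfp36, an mRNA decay factor of another finger class, and whose count exceeded 1 CPM, the count scaled by the sample total, in at least 2 of the 16 samples. They were thus chosen by symbol and selected on their measured CPM. The annotation held 364 such genes, of which 347 had a count above 0 in some sample and 294 passed the CPM filter. The filter used the same counts that are described below, but 257 of the 294 members had a sample above 1 CPM in all 6 groups and none in 1 group only. Zfp819 and Zfp366, named below, passed it only through groups that received tumor-conditioned medium. In mammals most genes of this class also encode a KRAB domain, which recruits KAP1 (Trim28) and with it histone deacetylases and the H3K9 methyltransferase Setdb1 to the bound DNA. KRAB zinc finger proteins are best known for keeping transposable elements silent and for protecting imprinted marks, and their genes sit in clusters that grew by duplication. Members without KRAB include general activators, RNA-binding proteins and ubiquitin ligases.

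The samples were bone marrow-derived macrophages (BMDMs) of wild type Balb/c mice aged 8 weeks, profiled by stranded poly(A) RNA sequencing. Macrophages in DMEM (n = 2) or in DMEM with ruxolitinib (DMEM + Rux, n = 3) were the baselines. The other groups received medium conditioned by 4T1 cells, a mouse mammary tumor line (CM, n = 3), alone or with 0.5 µM ruxolitinib, an inhibitor of JAK1 and JAK2 (CM + Rux). The CM + Rux samples carried labels of 2 h (n = 2) or 4 h (n = 3), and what is timed by the 2 h label, and the ruxolitinib dose in DMEM, were not given in the sources used here. A last group received CM, ruxolitinib and 0.8 µM IKK-16, an inhibitor of the IκB kinases (CM + Rux + IKK-16, n = 3). The labels of the DMEM, DMEM + Rux, CM and CM + Rux + IKK-16 samples gave no time, so no baseline was labelled 2 h. The paper's methods give 4 h with CM and ruxolitinib for RNA, after 2 h of serum starvation with ruxolitinib already added. They mention no 2 h samples for RNA. Whether the groups without a time label and the 2 h samples spent the same time in culture is not stated. The part of time in comparisons of samples with and without a time label was not tested. Nothing in the labels says that replicates came from separate mice or cultures, so p-values measure the spread between these samples, which may be technical. Totals ran from 18449388 to 46215853 counts a sample. The 8 macrophage markers summed to 40111 to 57130 CPM in every sample, and none of the epithelial markers of tumor cells passed the filter. The 7 epithelial markers summed to 0 to 0.231 CPM without CM, 0.732 to 1.45 CPM in CM and 0.183 to 0.889 CPM in the other groups. Most of the macrophage sum was Lyz2 (28515 to 38000 CPM). Other macrophage markers varied more, with Cd14 at 1406 to 15905, Mertk at 4.58 to 32.0 and Fcgr1 at 32.5 to 232 CPM. Dendritic cell markers summed to 8.53 to 12.7 CPM in the 2 h samples against 0.784 to 2.28 CPM elsewhere, nearly all of it Zbtb46, while Flt3 stayed at or below 0.167 CPM. The 6 neutrophil markers summed to 0.236 to 0.468 CPM without CM and 1.72 to 3.15 CPM in CM, and the 4 B cell markers to 1.07 to 1.23 CPM without CM and 0.122 to 0.267 CPM in CM. Of each of these 3 lists 1 gene passed the filter. Fibroblast markers, of which 4 of 5 passed, summed to 5.73 to 20.9 CPM, and T and NK markers to 4.81 to 13.1 CPM. For both lists the ranges of all groups overlapped. The part of these markers in the results was not tested. In these bulk samples, fewer cells of a type and less RNA per cell cannot be told apart.

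Levels and folds below were scaled by the median-ratio (RLE) method, which sets the median change of all genes near 0. Scaling by total counts alone moved the median gene of the CM groups down, by 0.31 on the log2 scale for CM against DMEM and by 0.37 for CM + Rux 2 h against DMEM + Rux, so changes are given relative to the typical gene. Calls of higher or lower rest on edgeR's quasi-likelihood test over 12372 genes, with a Benjamini-Hochberg adjusted p below 0.05 and a log2 fold change beyond 0.5. Among the members, 222 of 294 (75.5%) differed somewhere among the 6 groups, beside 78.4% of all genes tested.

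A profile search of the translated transcripts found a KRAB domain in 177 members and none in 117. The members held a median of 11 C2H2 fingers by sequence pattern, with a range of 0 to 36. A SCAN domain, which pairs such proteins with one another, was found in 13 members, 7 of which also held KRAB. Most members were expressed at a low level. Mean CPM over the 16 samples ran from 0.627 to 284.5 with a median of 8.27, and mean CPM per kilobase of exon, the scale used here to compare genes, had a median of 1.91. By CPM per kilobase the highest members were Zfp263 at 60.4, Zfp710 at 30.9 and Zfp106 at 27.3, and the lowest was Zfp651 at 0.0933. Members with KRAB were lower, with a median of 1.13 CPM per kilobase against 4.22 for those without. Just inside the filter stood Zfp651, Zfp334 and Zfp941, whose second-highest samples held 1.09, 1.11 and 1.27 CPM by sample total, and just outside stood Zfp599, Zfp112 and Zfp820 at 0.879, 0.821 and 0.743 CPM. Of the 70 annotated genes that did not pass, 48 encode KRAB. They include Zfp57, the imprint guardian of early embryos, with 25 counts over all samples, and Zfp42 (Rex1), a stem cell marker, with 0 counts, which allows up to 3 counts.

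Tumor-conditioned medium lowered many more members than it raised. In CM against DMEM, 95 of 294 members were lower (32.3%) and 30 were higher (10.2%), beside 24.1% and 20.9% of all genes tested, and the median member stood at -0.28 on the log2 scale against -0.005 for all genes. With total counts alone the split was 162 lower and 20 higher, so that the share of calls that were lower went from 76.0% to 89.0% for members and from 53.6% to 75% for all genes. In the 2 h samples, which had no baseline labelled 2 h, the tilt was wider. In CM + Rux 2 h against DMEM + Rux, 133 members were lower (45.2%) and 31 higher (10.5%), beside 21.7% and 18.4% of all genes, with a median of -0.43. With total counts alone these were 192 lower and 18 higher, which took the lower share of calls from 81.1% to 91.4%, and from 54.1% to 78.5% over all genes. In CM + Rux 4 h against the same DMEM + Rux samples, 97 were lower and 33 higher, beside 25.0% and 22.3% of all genes, with a median of -0.29, and with total counts alone 163 were lower and 24 higher (lower share of calls 74.6% and 87.2%, over all genes 52.9% and 73.3%). Against untreated DMEM, the 2 h samples had 125 members lower and 29 higher, beside 20.5% and 16.8% of all genes, and 193 and 17 with total counts alone (lower share of calls 81.2% and 91.9%, over all genes 54.9% and 79.2%). Members whose samples did not overlap between CM and DMEM numbered 208 (70.7%), beside 74.8% of all genes. Between 2 h and DMEM + Rux 237 members (80.6%) did not overlap, beside 70.8% of all genes. Between 4 h and DMEM + Rux there were 203 (69.0%) beside 70.0%, and between 2 h and DMEM 250 (85.0%) beside 76.3%.

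**Figure D1:**
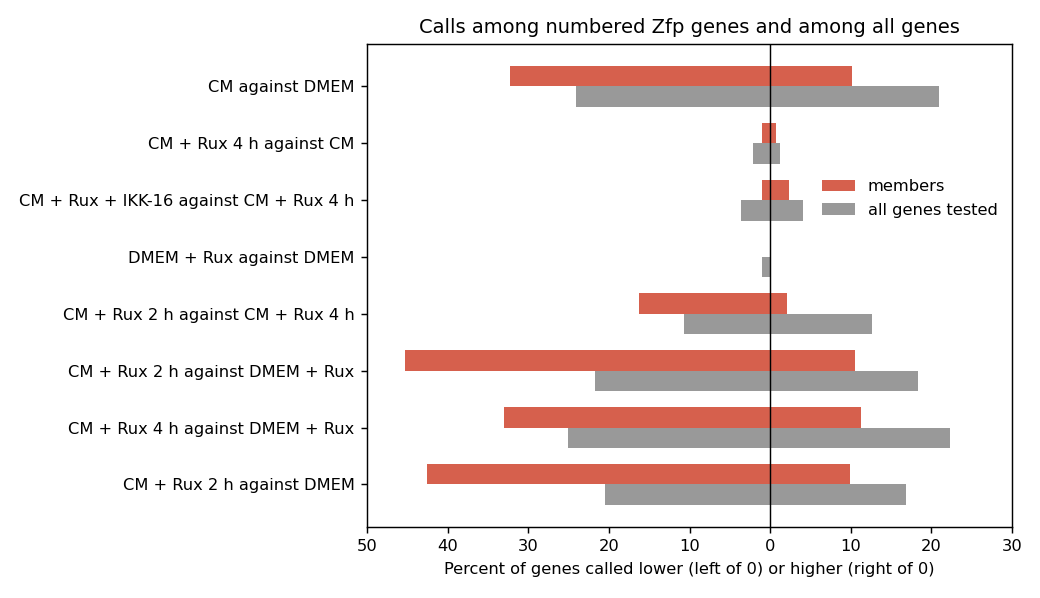
Percent of genes called lower (left of 0) or higher (right of 0) in each comparison, for the 294 members (red) and all 12372 genes tested (grey). In the 4 comparisons of a CM group with a DMEM group the members' bars reach further to the left than those of all genes, most of all at 2 h with 45.2%, and less far to the right.

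In a cluster on chromosome 7, members that rose and members that fell stood at opposite ends. Zfp658, Zfp719 and Zfp819 are neighbouring KRAB genes between positions 43562256 and 43618285 (GRCm38), all on the plus strand. Zfp658 stood at 3.75 and 4.58 CPM in DMEM, at 3.66 to 5.38 CPM in DMEM + Rux, and at 18.2 to 26.9 CPM in every sample that received CM. No CM sample overlapped a DMEM sample, and the log2 fold change was 2.30 (SE 0.155, adjusted p = 4.21e-08) for CM and 2.47 (SE 0.14, adjusted p = 7.18e-09) for the 2 h samples against DMEM + Rux. Zfp719 held 5.40 to 8.03 CPM in the 5 samples without CM and 20.6 to 28.5 CPM in the 11 with it. Its log2 fold change was 1.86 (SE 0.153, adjusted p = 2.66e-07) for CM against DMEM. Zfp819 had at most 3 counts in any sample without CM and 1.22 to 2.74 CPM in those with it. Against that floor of 3 counts per sample it was at least 13.0-fold higher in CM than in DMEM and at least 18.4-fold higher at 2 h than in DMEM + Rux. It passed the filter only through the groups with CM, so the filter itself favoured a rise there. In the same cluster Zfp141 was lower in CM by 1.17 on the log2 scale and Zfp975 fell by 0.60, while Zfp715 was not called, with 40.1 and 43.7 CPM in DMEM and 42.6 to 48.7 CPM in CM. The windows from 250 bases before to 50 after the start site (RefSeq, GRCm38.p6) are shown for these 3 and for 2 members that fell, Zfp273 and Zfp945, because all 3 that rose hold the letters of an NRF1 motif. Capitals mark matches on either strand to NRF1 (GCGCATGC), the GC box (GGGCGG), the E-box (CACGTG), ETS (CCGGAAG), NF-kB (GGANTTTCC) and STAT (TTCNNNGAA), some of which overlap their own reverse complement. The windows lie at chr7:43562120-43562419, chr7:43579336-43579635 and chr7:43606919-43607218 on the plus strand, chr13:67813566-67813865 on the plus strand and chr17:22867085-22867384 on the minus strand.
Zfp658: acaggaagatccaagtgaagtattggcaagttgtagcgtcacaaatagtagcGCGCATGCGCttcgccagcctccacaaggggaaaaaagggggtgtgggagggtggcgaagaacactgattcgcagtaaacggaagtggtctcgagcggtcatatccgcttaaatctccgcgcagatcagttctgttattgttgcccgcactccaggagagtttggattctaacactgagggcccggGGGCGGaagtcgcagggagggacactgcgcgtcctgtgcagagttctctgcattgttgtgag
Zfp719: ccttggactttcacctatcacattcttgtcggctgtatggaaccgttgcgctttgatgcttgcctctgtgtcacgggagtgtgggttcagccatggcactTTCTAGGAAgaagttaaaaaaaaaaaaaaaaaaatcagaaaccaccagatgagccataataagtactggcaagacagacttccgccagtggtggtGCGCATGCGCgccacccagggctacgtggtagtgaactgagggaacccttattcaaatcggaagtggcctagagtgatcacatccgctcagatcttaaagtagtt
Zfp819: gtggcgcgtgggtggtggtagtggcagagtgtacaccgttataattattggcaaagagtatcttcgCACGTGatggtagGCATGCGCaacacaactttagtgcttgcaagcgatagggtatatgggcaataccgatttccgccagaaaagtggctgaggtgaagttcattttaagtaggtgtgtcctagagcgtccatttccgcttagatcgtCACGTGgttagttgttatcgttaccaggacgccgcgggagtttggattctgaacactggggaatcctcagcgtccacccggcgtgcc
Zfp273: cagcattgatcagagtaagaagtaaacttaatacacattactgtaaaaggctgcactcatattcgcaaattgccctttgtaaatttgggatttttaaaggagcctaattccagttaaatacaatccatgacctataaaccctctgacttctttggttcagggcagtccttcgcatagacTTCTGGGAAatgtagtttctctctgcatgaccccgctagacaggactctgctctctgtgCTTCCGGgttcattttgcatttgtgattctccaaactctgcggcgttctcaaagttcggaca
Zfp945: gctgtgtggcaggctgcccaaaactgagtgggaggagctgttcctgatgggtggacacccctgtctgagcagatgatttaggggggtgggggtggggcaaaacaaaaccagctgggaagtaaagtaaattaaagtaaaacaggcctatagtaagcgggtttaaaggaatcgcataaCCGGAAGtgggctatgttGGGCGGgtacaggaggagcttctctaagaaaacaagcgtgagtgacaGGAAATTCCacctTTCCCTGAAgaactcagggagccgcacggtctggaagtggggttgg
In Zfp658 the NRF1 letters start 198 bases before the start site, in Zfp719 55 bases before it and in Zfp819, as the reverse complement, 171 bases before it. Zfp141 and Zfp715 of the same cluster also hold them, although neither rose.

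Over the 246 members with a window in the RefSeq table (296 windows of 32851), ETS letters stood in 20.3% of member windows against 8.86% of all windows. STAT letters stood in 15.9% against 8.30%, NRF1 in 5.41% against 2.71% and YY1 (AAGATGGC) in 6.08% against 2.75%. The GC box was in 44.9% against 35.7%, the cAMP element (TGACGTCA) in 3.04% against 1.79%, NF-kB in 1.69% against 1.25%, the E-box in 6.76% against 7.15%, the interferon element (GAAANNGAA) in 6.76% against 8.56% and AP-1 (TGANTCA) in 3.72% against 7.81%. Base composition differed too, with a median GC content of 52.8% in windows of KRAB members and 62.3% in those of the others, beside 52.7% over all windows. Among members lower at 2 h against DMEM + Rux, ETS letters stood in 19.7% of 127 windows, near the 22.2% of 135 windows of members not called. STAT letters stood in 19.7% of the lower members' windows, 14.8% of those not called and 5.88% of the 34 windows of members that rose, and the GC box in 37.0%, 47.4% and 64.7%. These are shares of windows with the letters, with no test, and KRAB members alone held STAT letters in 21.3% and the GC box in 34.3%.

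The members named here for the largest falls in CM against DMEM and at 2 h against DMEM + Rux all encode KRAB, and most lie in clusters, with Zfp39 alone. Zfp40 stood at 4.10 and 4.13 CPM in DMEM, at 3.98 to 4.29 CPM in DMEM + Rux and at 0.409 to 1.06 CPM in the 11 samples with CM. The ranges were far apart, with log2 fold changes of -2.26 (SE 0.307, adjusted p = 2.29e-05) for CM and -2.48 (SE 0.337, adjusted p = 2.72e-05) for 2 h. Zfp493 held 1.48 and 1.68 CPM in DMEM, 1.78 to 2.1 in DMEM + Rux, 0.148 to 0.651 in CM and 0.166 and 0.292 at 2 h. Its fall at 2 h was 3.20 on the log2 scale (SE 0.46, adjusted p = 4.49e-05 in edgeR's test), against a baseline near 2 CPM. Zfp273 held 1.92 to 2.49 CPM in DMEM + Rux and 0.441 and 0.467 CPM at 2 h, and fell by 2.27. Zfp101 went from 5.34 to 6.92 CPM in DMEM + Rux to 1.19 and 1.46 CPM at 2 h, and fell by 2.24. Zfp808 fell by 2.43 at 2 h, from a mean of 1.99 CPM in DMEM + Rux. Zfp493 and Zfp273 lay below the 1 CPM of the filter at 2 h and above it in DMEM + Rux. The filter therefore favoured their falls, and may have favoured that of Zfp808. For Zfp945, of the same cluster as Zfp40, the samples in DMEM held 11.4 and 10.6 CPM and those in CM 3.0 to 3.77 CPM, with a log2 fold change of -1.74 (SE 0.231, adjusted p = 1.91e-05). The others that fell furthest in CM against DMEM were Zfp763 (-1.70), Zfp810 (-1.67) and Zfp39 (-1.66), and the same 3 genes fell by 1.94, 1.70 and 1.85 in CM + Rux 4 h against DMEM + Rux.

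**Figure D2:**
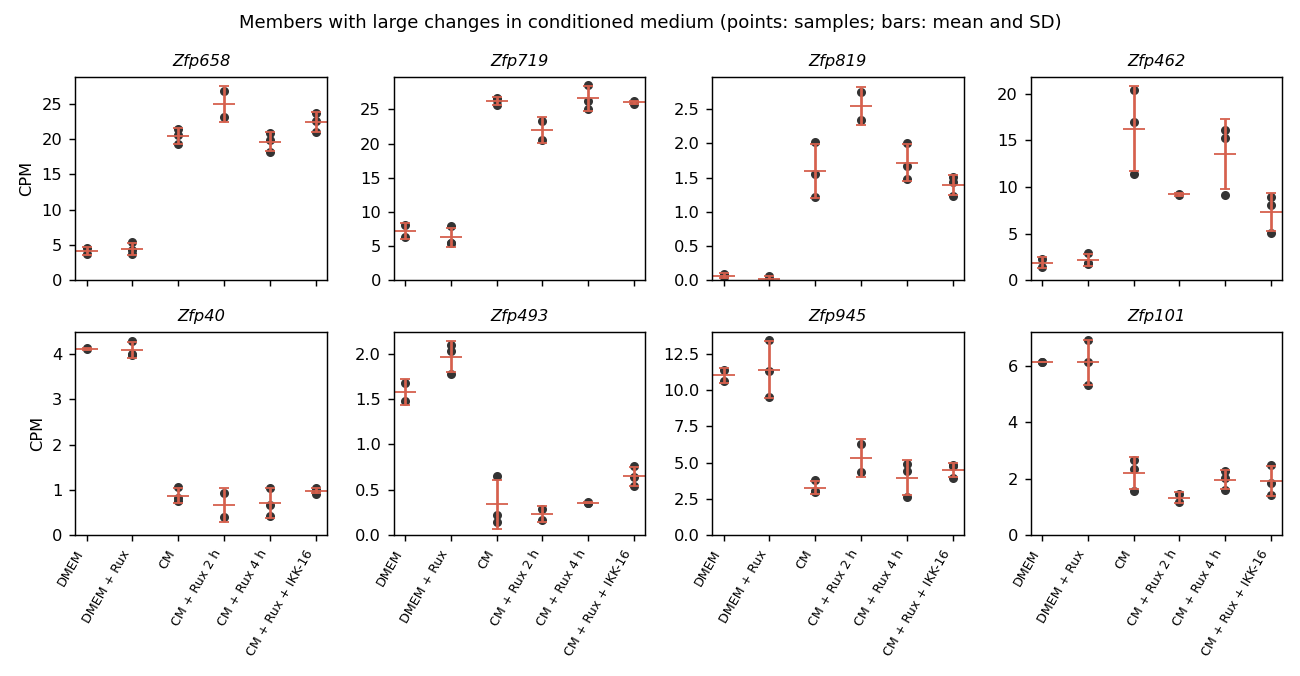
CPM (linear axis from 0) of 8 members in every sample (points), by group, with the mean and SD as bars. Zfp658, Zfp719, Zfp819 and Zfp462 are higher in all samples that received CM than in any DMEM sample, and Zfp40, Zfp493, Zfp945 and Zfp101 are lower in all of them.

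Outside the clusters, larger members without KRAB were among those that rose. Zfp462, a protein of 33 fingers in this annotation that is needed in embryonic development, held 1.45 and 2.29 CPM in DMEM, 1.75 to 2.94 in DMEM + Rux, 11.3 to 20.4 in CM and 9.19 to 16.1 in CM + Rux 4 h. With IKK-16 it stood at 5.05 to 8.96 CPM. Its log2 fold change in CM was 3.15 (SE 0.377, adjusted p = 7.64e-06). Zfp609, a partner of the Integrator complex, went from 32.6 and 25.7 CPM in DMEM to 102 to 131 CPM in CM, and to 61.4 and 73.6 CPM at 2 h. The rise in CM was 2.05 on the log2 scale (SE 0.169, adjusted p = 2.6e-07). Zfp558, a KRAB member that stands alone, went from 1.42 and 1.59 CPM in DMEM to 5.50 to 5.66 CPM in CM. In CM + Rux 4 h against DMEM + Rux, Zfp811 and Zfp697 also rose, by 2.88 and 2.07 on the log2 scale. Zfp697 averaged 0.293 CPM in DMEM and 0.375 CPM in DMEM + Rux, below the 1 CPM of the filter. At 2 h Zfp791 rose by 1.92, but without 2 h replicate 2 it was no longer called (1.07, adjusted p = 0.223). Zfp710, the second-highest member per kilobase, held 321 and 397 CPM in DMEM, 172 to 213 in CM and 70.5 and 90.7 at 2 h, which was 2.15 below DMEM on the log2 scale (SE 0.18, adjusted p = 4.87e-07 in edgeR's test).

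Most of the members that fell encode KRAB. In CM against DMEM, 81 of 177 KRAB members were lower (45.8%) and 7 higher, with a median of -0.48, while of the 117 without KRAB 14 were lower (12%) and 23 higher, with a median of -0.02. At 2 h against DMEM + Rux, 101 KRAB members were lower (57.1%) and 10 higher, with a median of -0.77, and of those without KRAB 32 were lower (27.4%) and 21 higher, with a median of -0.14. At 4 h the KRAB members had 79 lower and 11 higher, with a median of -0.50, and those without had 18 lower and 22 higher, with a median of 0.03 that became -0.27 with total counts alone. Of all genes tested, 24.1%, 21.7% and 25.0% were lower and 20.9%, 18.4% and 22.3% higher in these 3 comparisons. KRAB members stood at lower levels, where more of all genes fell as well, as given below. In single samples, the median KRAB member stood within -0.08 to 0.05 of the DMEM + Rux mean in the 5 samples without CM, at -0.58 to -0.37 in CM, at -0.68 and -0.65 at 2 h, at -0.46 to -0.35 at 4 h and at -0.33 to -0.21 with IKK-16, on the log2(CPM + 0.5) scale. The 2 h samples were the lowest and did not overlap any other group. Members without KRAB stayed within -0.09 to 0.07 in all samples but the pair at 2 h, both at -0.13.

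**Figure D3:**
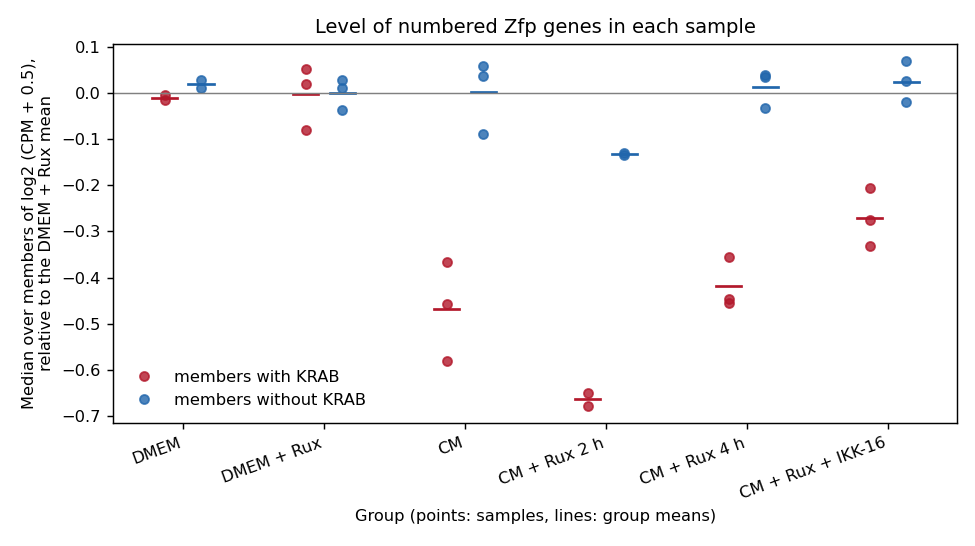
Median over members of the difference from the DMEM + Rux mean, in log2(CPM + 0.5), for each sample (points) with group means (lines), for members with KRAB (red) and without (blue). The red points drop in every CM group, furthest at 2 h (-0.68 and -0.65), and the blue points leave 0 by more than 0.1 at 2 h alone (-0.13).

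The share of members that fell was largest at low levels, and all genes tested showed a like gradient between the highest range and the others. In 4 level ranges of the members by mean CPM, from the lowest (0.627 to 3.35 CPM) to the highest (19.5 to 284.5 CPM), 73.0%, 56.2%, 37.0% and 14.9% were lower at 2 h against DMEM + Rux. All genes in the same ranges of CPM were lower in 31.6%, 39.5%, 32.2% and 11.9%. For CM + Rux 4 h against DMEM + Rux, the members' shares were 55.4%, 41.1%, 26% and 9.46%, against 40.0%, 40.0%, 29.5% and 15.4%, and for CM against DMEM 54.1%, 39.7%, 28.8% and 6.76%, against 36.2%, 38.9%, 30.6% and 14.7%. The members' share lay furthest above that of all genes in the lowest range in all 3 comparisons, and in the highest range it lay below it at 4 h and in CM. Within the lowest range at 2 h, 43 of 57 KRAB members and 11 of 17 others were lower, and in the next, 39 of 64 and 2 of 9. Across the 294 members, Spearman's rho of the log2 fold change at 2 h was 0.49 with mean CPM, 0.53 with CPM per kilobase, -0.26 with the number of genes in the cluster and -0.11 with the number of fingers. These are descriptions over genes that share libraries, and mean CPM holds the same counts as the fold change.

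**Figure D4:**
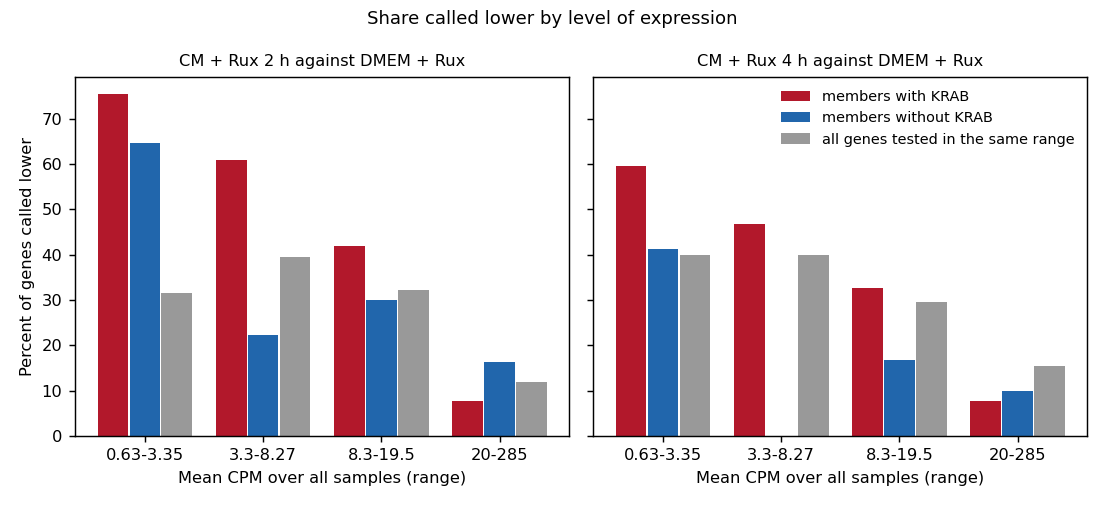
Percent of genes called lower against DMEM + Rux at 2 h (left) and 4 h (right), in 4 ranges of mean CPM, for members with KRAB (red), members without (blue) and all genes tested in the range (grey). At 2 h KRAB members lie above all genes in the 3 lower ranges, and in the second range at 4 h none of the 9 members without KRAB was lower, which leaves no bar.

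Counts were also taken by position, without a test. With a gap of at most 500 kb, 10 clusters of at least 7 annotated genes held 110 members, and 92 members stood alone. At 2 h against DMEM + Rux, 58 of the 110 were lower and 7 higher, with a median of -0.63, against 26 lower and 18 higher of the 92, with a median of -0.07. Of all genes tested 21.7% were lower and 18.4% higher. The largest cluster, on chromosome 17 from 21008903 to 23599487, had 14 of 21 members lower (median -0.93). The chromosome 13 cluster from 67038596 to 67827002, which holds Zfp493 and Zfp273, had 11 of 17 lower (-0.76). The second cluster of chromosome 17, from 32765496 to 33631779, had 7 of 11 lower (-0.76), and on chromosome 7 those from 12415153 to 12985714 and from 24081924 to 25227507 had 5 of 7 (-0.73) and 6 of 10 (-0.84). The clusters on chromosome 7 from 29768552, chromosome 6 from 47819266 and chromosome 4 from 145510759 held 14, 8 and 5 members. A smaller share of these members was lower than of the 110. The next 2 clusters had a median near 0. The chromosome 7 cluster from 127233061 to 127885996 had 3 of 10 lower (-0.05) and the one with Zfp658 had 3 of 7 lower and 3 higher (-0.05). KRAB was found in 21 of 21 members of the largest cluster and in 17 of 17 of the chromosome 13 cluster. It was found in 4 of 10 members of the cluster from 127233061 and in 7 of 7 of the one with Zfp658. Position, KRAB and level of expression were not separated here. Multi-mapping fragments were left out of the counts, so reads of near-identical cluster copies are uncertain.

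The 2 h and 4 h labels differed among members mostly in 1 direction. In CM + Rux 2 h against CM + Rux 4 h, 48 members were lower (16.3%) and 6 higher (2.04%), beside 10.7% and 12.6% of all genes, with a median of -0.17 against -0.03 for all genes. Of the 48, 31 were KRAB members of 177 and 17 were among the 117 without. The 31 became 19 without 2 h replicate 3 and 17 in a fit of these 2 groups alone. The medians of members with and without KRAB were -0.18 and -0.17. Samples of 156 members (53.1%) did not overlap, beside 59.6% of all genes. Zfp446 (KRAB and SCAN) held 2.26 and 1.58 CPM at 2 h against 5.35 to 5.59 CPM at 4 h and 3.69 to 5.82 CPM in the other groups. It was below every other sample at 2 h, with a log2 fold change of -1.47 (SE 0.177, adjusted p = 3.49e-05). Zfp41 stood at 3.50 and 3.74 CPM at 2 h, 8.16 to 10.8 at 4 h and 5.79 to 8.95 in CM, with a log2 fold change of -1.37 (SE 0.19, adjusted p = 0.000103). Zfp976 held 1.19 and 0.876 CPM at 2 h and 2.42 to 3.31 CPM at 4 h, and fell by 1.46. Zfp366 (DC-SCRIPT), a dendritic cell cofactor, averaged 0.198 CPM in DMEM and 0.216 CPM in DMEM + Rux. It passed the filter only through groups with CM, the 4 h group among them, which favoured a fall from 4 h. Zfp366 and Zfp811 were also lower, by 1.74 and 1.38. Neither call outlasted leaving out 2 h replicate 2 (-2.32 and -1.50), 2 h replicate 3 (-1.47 and -1.30) or 4 h replicate 1 (-1.70 and -1.43), nor did that of Zfp366 without 4 h replicate 2 (-1.56) and that of Zfp811 without 4 h replicate 3 (-0.93). Among the 6 higher members, Zfp949 held 11.2 and 11.9 CPM at 2 h against 6.10 to 6.98 CPM at 4 h and at most 8.77 CPM elsewhere (log2 fold change 0.80, SE 0.13, adjusted p = 0.000337). Zfp703, a cofactor amplified in luminal breast cancer, held 126 and 161 CPM at 2 h, 70.8 to 98.1 at 4 h and 42.5 to 50.6 without CM. Its difference of 0.72 was not called without 2 h replicate 2 (0.53, adjusted p = 0.0529). Zfp131, a BTB-domain member, held 62.0 and 82.4 CPM at 2 h and 47.9 to 53.5 at 4 h, a difference of 0.51 that fell to 0.29 without 2 h replicate 3 and to 0.47 without 4 h replicate 3, below the fold threshold. Zfp61 (0.66) and Zfp382 (0.51) were close to the threshold as well, and Zfp61 was not called without 2 h replicate 2 (0.51, adjusted p = 0.101). Zfp382 was not called without 2 h replicate 3 (0.22) or 4 h replicate 1, 2 or 3 (0.58, 0.41 and 0.55).

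Members with a known role were compared by role. Among KRAB repressors, Zfp809, which silences murine leukemia virus, was lower in CM, 2 h and 4 h against their baselines (-0.87, -1.03 and -0.95), and Zfp568, a repressor of a placental Igf2 transcript, was higher (0.71, 1.13 and 0.94). Zfp445, an imprint guardian, was not called in any of these. Among general regulators Zfp143, which binds many promoters, was higher (0.79, 0.69 and 0.76), as was Zfp281, a regulator of pluripotent cells (1.01, 1.30 and 1.12). Zfp516, an activator in brown fat, rose by 1.36, 1.31 and 1.07, and Zfp703 by 0.82, 1.63 and 0.91. Among proteins of RNA and translation, Zfp598, the ubiquitin ligase of collided ribosomes, was higher (0.77, 1.10 and 0.98). Zfp106, an RNA-binding protein, was higher in CM (0.64) and at 4 h (0.68) but not called at 2 h (adjusted p = 0.15), where it held 224 and 259 CPM against 170 to 234 CPM in DMEM + Rux. With total counts alone, Zfp106, Zfp143, Zfp568 and Zfp598 stood at 0.33, 0.47, 0.40 and 0.47 in CM, below the fold threshold, Zfp143 at 0.32 at 2 h and 0.46 at 4 h, and Zfp106 at 0.37 at 4 h. Zfp326, a splicing factor, was called at 2 h alone (0.51, adjusted p = 0.04), and not without 2 h replicate 2 or 3 (0.54 and 0.47) or DMEM + Rux replicate 1 or 3 (0.46 and 0.50). Zfp148, Zfp207, Zfp622, Zfp91, Zfp318, Zfp335, Zfp638, Zfp410, Zfp384, Zfp217 and Zfp346 were not called in these 3 comparisons.

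Ruxolitinib moved few members. In DMEM + Rux against DMEM no member was called by edgeR, beside 0% of all genes called higher and 0.970% lower. DESeq2 called 0 members as well. At an unadjusted p below 0.05 with no fold threshold, 2 members were higher and 2 lower. All genes were not counted at that threshold. In CM + Rux 4 h against CM, 2 members were higher and 3 lower, beside 1.20% and 2.13% of all genes, and 46 members (15.6%) did not overlap, beside 19.2%. Zfp618, which binds hydroxymethylated DNA with Uhrf2, held 22.2 to 38.6 CPM in CM, 6.61 to 7.89 in CM + Rux 4 h, 3.50 and 3.75 at 2 h and 7.43 to 9.41 CPM in the 5 samples without CM. All 3 CM samples lay above every other sample, and the log2 fold change under ruxolitinib was -2.09 (SE 0.205, adjusted p = 6.6e-05). Zfp827, which recruits a deacetylase complex to telomeres, held 1.84 to 2.20 CPM in CM, 4.38 to 5.63 in CM + Rux 4 h, 5.74 to 7.96 with IKK-16 and 1.78 to 2.60 without CM (1.32, SE 0.184, adjusted p = 0.000768). For both, the effect of ruxolitinib in CM differed from that in DMEM, by -2.01 for Zfp618 (adjusted p = 0.0118) and 1.55 for Zfp827 (adjusted p = 0.0302). They were the only members called in this interaction, beside 0.178% of all genes lower and 0.234% higher. The interaction of Zfp618 was not called without DMEM replicate 1 (-2.12, adjusted p = 0.0595), and that of Zfp827 was lost without any of CM replicates 1 and 2, 4 h replicates 1 and 3, DMEM + Rux replicates 1 to 3 and DMEM replicate 1 (1.32 to 1.63, adjusted p = 0.0502 to 0.223). Zfp422 rose by 0.52, a value that was 0.43 without 4 h replicate 2 and 0.49 without CM replicate 3, below the fold threshold, which left 1 higher member in the latter fit. Zfp608, a repressor of the Rag genes, and Zfp609 were lower by 0.69 and 0.57. Neither was called without 4 h replicate 1 (-0.52 and -0.61), CM replicate 1 (-0.71 and -0.51) or CM replicate 2 (-0.56 and -0.52), nor Zfp609 without 4 h replicate 3 (-0.50), so that 1 member was lower in each of the first 3 of these fits. For CM + Rux 4 h against CM with this block, 5 members were higher (1.70%), with Zfp791 (1.22), Zfp811 (1.21) and Zfp503 (0.56) added. Lower members numbered 3 (1.02%). Of all genes, 2.47% were then higher and 3.56% lower.

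IKK-16 on top of CM and ruxolitinib raised 7 members and lowered 3, beside 4.07% and 3.66% of all genes. KRAB members took 6 of the 7 rises, with a median of 0.15 against 0.00 for the others. The 6 became 2, beside 2 without KRAB, when 4 h replicate 2 was left out, and 3 without IKK-16 replicate 1, where the KRAB median was 0.099. With total counts alone 15 were higher and 3 lower, which took the lower share of calls from 30% to 16.7% for members and from 47.3% to 32.5% for all genes. Zfp558 held 3.91 to 6.36 CPM in CM + Rux 4 h and 1.28 to 2.12 CPM with IKK-16, within the range of 1.23 to 2.74 CPM of the 2 h samples and the samples without CM. It fell by 1.6 on the log2 scale (SE 0.23, adjusted p = 0.000659 in edgeR's test). Zfp366 went from 1.17 to 2.15 CPM to 0.262 to 0.611 CPM, a fall of 2.20 that was not called without IKK-16 replicate 1 (adjusted p = 0.0517). Its IKK-16 samples lay below the 1 CPM of the filter and its 4 h samples above it, so the filter favoured that fall. Zfp618 fell further, by 0.86, to 3.04 to 5.23 CPM. Zfp704 rose by 0.79, from 11.5 to 16.3 CPM to 19.9 to 30.1 CPM, below the 37.8 to 52.4 CPM of the samples without CM. Zfp458 (0.80), Zfp975 (0.77), Zfp248 (0.72) and Zfp709 (0.67) rose too. Without IKK-16 replicate 1 the calls of Zfp618 (-0.69), Zfp704 (0.62) and Zfp709 (0.60) ended, leaving 3 higher and 1 lower member. Without IKK-16 replicate 3 those of Zfp618 (-0.82), Zfp458 (0.72) and Zfp709 (0.63) ended, and without 4 h replicate 2 those of Zfp618 (-0.79), Zfp248 (0.66) and Zfp709 (0.66), leaving 4 higher. Without 4 h replicate 1 Zfp458 (0.71) and Zfp709 (0.62) were not called and 5 members were lower, and without IKK-16 replicate 2 there were 11 higher. With the replicate number as a block, 14 members were higher, among them the 7, and 5 were lower, with Zfp462 (-0.88) and Zfp811 (-1.23) added. These were 4.76% and 1.70% of members, beside 5.81% and 5.04% of all genes.

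**Figure D5:**
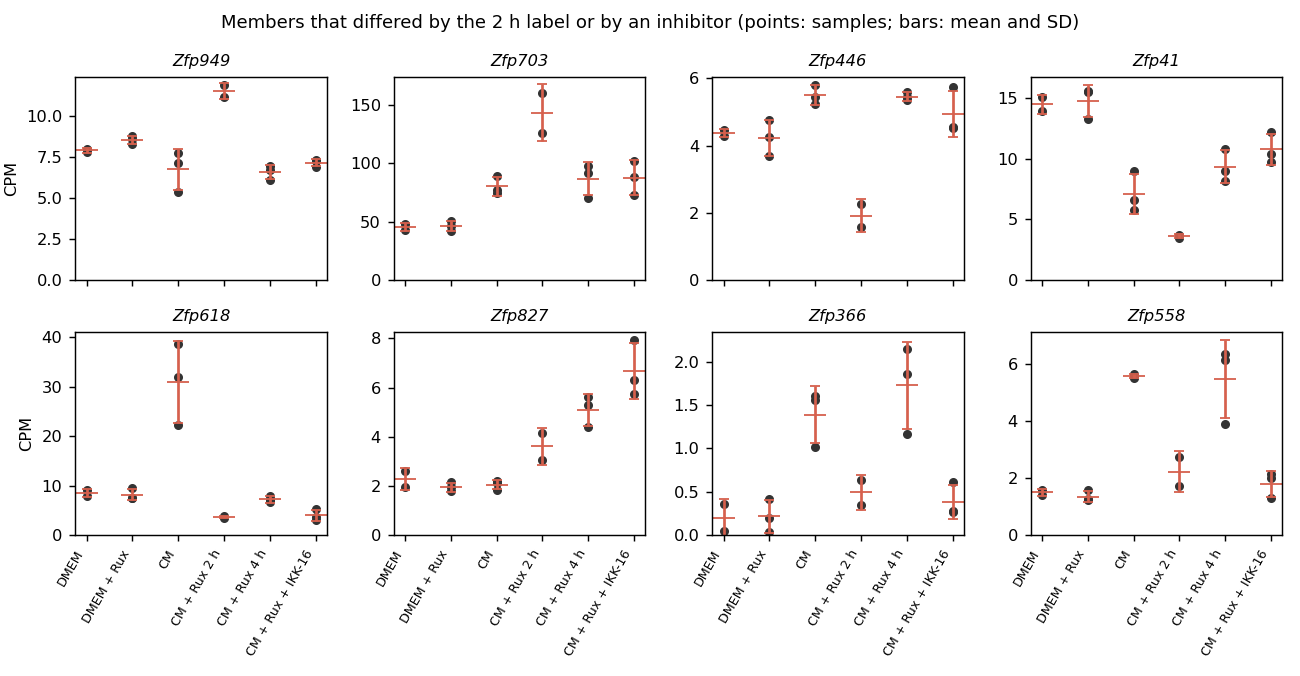
CPM (linear axis from 0) of 8 members in every sample (points), by group, with the mean and SD as bars. Zfp949 and Zfp703 peak at 2 h, Zfp446 and Zfp41 are lowest there, Zfp618 is high in CM alone (22.2 to 38.6 CPM), and Zfp366 and Zfp558 are lower with IKK-16 than in CM + Rux 4 h.

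The partners of KRAB proteins were called in both directions. All genes tested, against which the lists below are set, were higher in 20.9%, 18.4% and 22.3% and lower in 24.1%, 21.7% and 25.0% in CM against DMEM, 2 h against DMEM + Rux and 4 h against DMEM + Rux. Of 32 tested genes of KAP1 silencing, 4 (12.5%) were higher and 2 (6.25%) lower in CM, 4 (12.5%) and 5 (15.6%) at 2 h, and 6 (18.8%) and 2 (6.25%) at 4 h, all below the shares of all genes. Between 2 h and 4 h, 7 (21.9%) were lower at 2 h, beside 10.7% of all genes, and 0 higher, beside 12.6%. These were Trim28, the KRAB corepressor itself (-0.54), Ehmt1 (-0.79), Atf7ip, which stabilises Setdb1 (-0.84), Morc2a (-0.51), Fam208a of the HUSH complex (-0.67), Smarcad1 (-0.60) and Cbx5, which encodes HP1α (-1.04). Other finger families were mixed. The 9 tested Zscan genes had 4 lower in CM and at 2 h and 3 at 4 h, with 0 higher (44.4%, 44.4% and 33.3% lower), and the 9 Zkscan genes 4, 6 and 4 lower (44.4%, 66.7% and 44.4%) with 2 higher each time (22.2%). The 34 Zbtb genes had 4 higher and 7 lower in CM (11.8% and 20.6%), 8 and 7 at 2 h (23.5% and 20.6%), and 7 and 6 at 4 h (20.6% and 17.6%). Of 12 Klf genes, regulators that bind GC-rich sites, 5 were higher and 3 lower in CM (41.7% and 25.0%), 6 and 2 at 2 h (50% and 16.7%) and 4 and 3 at 4 h (33.3% and 25.0%). These lists hold few genes, and no test was made over them. The 3 Egr genes, early response regulators, had 2 lower in CM, 2 higher at 2 h and all 3 lower at 4 h. Genes of basal transcription (35 tested) had 9, 8 and 8 higher (25.7%, 22.9% and 22.9%), near the shares of all genes, and 1, 2 and 0 lower (2.86%, 5.71% and 0%). Their medians of 0.24, 0.13 and 0.23 were smaller than the shift of 0.31, 0.37 and 0.30 that total counts alone would bring. Genes of mRNA decay (36 tested) had 12, 11 and 13 higher (33.3%, 30.6% and 36.1%) and 3, 4 and 5 lower (8.33%, 11.1% and 13.9%) in CM, at 2 h and at 4 h.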

How the data were processed

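RNA of 16 BMDM samples was read as 150 bp pairs from stranded libraries. The deposited table holds raw counts per Ensembl gene, which the authors made with Trimmomatic 0.33, HISAT2 2.1.0 and featureCounts 1.6.2 (GRCm38, Ensembl 100, reverse stranded, MAPQ of at least 10), leaving out multi-mapping fragments and those on several genes. Each sample has its own column. Symbols, positions and translated transcripts came from GENCODE M21 (GRCm38), an earlier release than the authors' annotation, and promoter windows from RefSeq (GRCm38.p6). Protein features were taken from these translated transcripts in place of RefSeq proteins. The 260 IDs without a symbol held at most 0.0016% of a sample's counts. The 12372 genes with 2 or more samples above 1 CPM were fitted in edgeR 4.0.16 (quasi-likelihood test, RLE scaling, all 16 samples, group as the term), with Benjamini-Hochberg adjustment over all genes. Standard errors are the log2 fold change over the root of F. KRAB and SCAN domains were searched with pyhmmer 0.12.3, using profiles built from family proteins that hold a core sequence pattern. No pair of replicates agreed within counting noise. The members, gene lists and roles were chosen with earlier results of these data known, so no test over a list is given. Genes were named as the 5 members with the largest change in each direction per comparison, among those called, at 1 CPM or more over the groups compared and without overlap between samples, plus members with a known role, those highest and lowest per kilobase, those nearest the filter, and called genes of a list. A gene named outside this rule was chosen after its values were seen. Replicate numbers were taken as pairing samples where a comparison had 3 or more same-number pairs and each pair's deviations from the group means correlated above 0.1, which held for the 4 h group set against CM and against DMEM + Rux, and for the IKK-16 group set against the 4 h group (median r 0.38 over the 35 same-number pairs of all groups, 34 of them above 0.1, and -0.13 over 71 others). Comparisons with only 2 such pairs share only a number here. Alternatives were scaling by total counts or TMM, no filter, DESeq2 1.42.0, other thresholds, fewer groups, the replicate block and each sample left out. The script was tested on simulated data.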

Additional observations from a re-analysis of the deposited data

Results flagged for a closer look

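The effect of ruxolitinib in CM and its effect in DMEM differed for 2 members, by edgeR's test of the difference itself with group as the only term. With the replicate number as a block, 4 members were higher and 3 lower. For Zfp618 the difference was -2.01 on the log2 scale (adjusted p = 0.0118), with lower values in all 3 CM + Rux 4 h samples than in all 3 CM samples. It was not called without DMEM replicate 1 (-2.12, adjusted p = 0.0595). For Zfp827 it was 1.55 (adjusted p = 0.0302), with higher values in all 3 CM + Rux 4 h samples than in all 3 CM samples. That call was lost on leaving out any of 8 single samples (1.32 to 1.63, adjusted p = 0.0502 to 0.223).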

How the results depend on the processing

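The called members named under the rule kept their direction in the comparisons that call them, in all settings run, and the medians of all members against a DMEM baseline stayed below 0 in the CM groups, while medians near 0 changed sign. With total counts alone, CM against DMEM had 162 members lower (median -0.59), CM + Rux 2 h against DMEM + Rux 18 higher (-0.80), CM + Rux 4 h against DMEM + Rux 163 lower (-0.59), CM + Rux 2 h against DMEM 17 higher and 193 lower (-0.77), CM + Rux 2 h against CM + Rux 4 h 3 higher (-0.24), and IKK-16 15 higher (0.16). For CM + Rux 4 h against CM, higher members were 5 with no filter, with the replicate block and at an unadjusted p under 0.05, and 4 with no fold threshold. Leaving out samples gave 1 to 3 higher and 1 to 4 lower. For IKK-16, higher members were 13 at an adjusted p under 0.1, 16 with no fold threshold, 4 with only the groups compared, 14 with the replicate block and 19 at an unadjusted p. Lower members were 5 at an adjusted p under 0.1, with DESeq2, the likelihood ratio test, no filter, the block and an unadjusted p, and 10 with no fold threshold. Leaving out samples gave 3 to 11 higher, 1 to 5 lower and medians of 0.0401 to 0.0938. CM + Rux 2 h against CM + Rux 4 h had 16 higher with no fold threshold, 30 lower with only the groups compared, and medians of -0.22 to -0.15 with samples left out. CM + Rux 4 h against DMEM + Rux had 53 higher with no fold threshold, and DMEM + Rux against DMEM 1 at an unadjusted p with the fold threshold. The interaction had 2 higher with DESeq2, the likelihood ratio test and no filter, 4 higher and 3 lower with the block (adding Zfp182, Zfp422 and Zfp811, and Zfp219 and Zfp609), 5 and 3 at an unadjusted p, and 0 to 1 in each direction with samples left out. The block moved no other count of calls over all members by more than 1.5 times, and beyond those named it ended the calls of Zfp131 between 2 h and 4 h (0.47) and Zfp326 at 2 h (0.40). The causes were not tested. Of the other settings of named members and of the KRAB split, 70 ended a call, 105 moved a count or a median and 2021 did neither. A count moved if it changed by more than 1.5 times or to or from 0, and a median if it changed by more than its spread between replicates. Where a left-out sample leaves 1 in a group, that sample is assumed to vary like the other groups. Depth limits members near 1 CPM most.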
